A study of Mus musculus with 15 samples.

Results

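Repeat-mapped RNA was compared between 3 Tex15-/- testes at P20 and 3 Tex15-/- samples of E16.5 foetal gonocytes, which make 6 of the 15 libraries of the series. The libraries were chosen by their labels, and every row of each repeat table was used except the row of unmapped reads. Each P20 library came from 1 whole testis and was made with a directional kit and sequenced as single-end reads, and whether ribosomal RNA was removed is not given in the sources used here. The gonocytes were sorted by flow cytometry from foetal testes that also carried 1 copy of a Miwi2 tdTomato reporter, and their RNA was depleted of ribosomal RNA and went into a low-input stranded kit with shorter, paired-end reads. All mice were of a mixed B6CBAF1/Crl and C57BL/6N background, and the Tex15 null allele carries a short insertion with stop codons in exon 5. The 3 Tex15+/- gonocyte libraries, with the same reporter, gave the background at E16.5, while control testes at P20 were not analysed here. Age, tissue, library kit and read type changed together between the P20 and the E16.5 sets and cannot be told apart. The Miwi2 reporter is not described for the P20 testes, so this allele may differ between the sets too. The values below therefore describe composition and rank and are not an effect of stage. In a whole testis, fewer cells of a type and less RNA per cell cannot be told apart either.

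Tex15 encodes a germ cell protein needed for male meiosis and fertility. In foetal male germ cells, DNA methylation is erased and written again, and the piRNA pathway with its nuclear PIWI protein MIWI2 directs this methylation to young transposons. The repeats concerned belong to a few kinds. LINE-1 (L1) elements are autonomous retrotransposons without long terminal repeats (LTRs), and the mouse L1 families A, Tf and Gf hold copies that still move, whereas F is an older promoter type. Endogenous retroviruses (ERVs) have an internal coding region between 2 LTRs and fall into the classes ERV1 (such as VL30, GLN and MuLV-related elements), ERVK (such as intracisternal A particles or IAPs, ETn and MusD, and MMERVK10C) and ERVL (MERVL), with the related non-coding MaLR elements of the MT and ORR1 families. SINEs of the B1 and B2 families are short elements that rely on L1 proteins, and satellites are tandem repeats, which include the major and minor satellites near centromeres.

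The P20 libraries held 364477, 338254 and 397378 reads on repeat consensus sequences and the knockout gonocyte libraries 1277612, 662394 and 1053380, where each mate of a pair counted as 1 read. The values are the share of these reads that each consensus took in its library, as a percent. A consensus here is the reference sequence of 1 repeat subfamily, or of its LTR or internal part. Shares are not levels per length, so differences between consensus sequences in 1 library also hold their lengths. The share of all reads that fell on repeats was 4.17%, 2.25% and 3.64% in the knockout gonocytes and between 3.02% and 3.47% in the control gonocytes, and could not be computed for P20. Nothing in the labels says that the gonocyte samples came from separate animals, so p-values measure the spread between these samples only. Reads shared by near-identical consensus sequences can be split between them, which leaves the values of single L1 and IAP names less certain than those of their groups.

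The targeted gene was low in the knockout gonocytes, with 466, 222 and 243 CPM for Tex15 (gene reads scaled to a common total), against 1502 to 1699 CPM in the control gonocytes. The 7 germ cell markers summed to 2676, 2651 and 2677 CPM in the knockout gonocytes and none was at 0. Knockout gonocyte replicates 2 and 3 held more RNA of somatic markers than replicate 1. The 5 mesenchymal markers summed to 60.4, 1599 and 381 CPM in replicates 1 to 3, against 59.5 to 72.8 CPM in the controls, and the 5 Leydig cell markers summed to 34.5, 534 and 166 CPM, against 17.8 to 61.1 CPM. The Leydig cell marker Insl3 was at 0 in knockout replicate 1 and in all 3 controls, and every other marker of these 3 lists had reads in each knockout gonocyte library. Replicate 2 stood farthest apart and had the fewest repeat reads, so results are also given without it where that changes them. Neither the tissue label nor the genotype of the P20 libraries could be checked this way, since only repeat counts were used for them.

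Repeat RNA was spread over fewer consensus sequences in the P20 testes than in the knockout gonocytes. The largest consensus took 13.2%, 14.4% and 14.8% of the reads of the P20 libraries, L1MdTf_I in each, and 6.48%, 7.86% and 7.08% in the gonocytes, where it was L1MdTf_I in replicates 1 and 2 and IAPEZI in replicate 3. The 10 largest of each set summed to 66.1% ± 1.42 (SD, n = 3) at P20 and 50.1% ± 2.43 (SD, n = 3) at E16.5. In control gonocytes, the same 10 names as in the knockout gonocytes took 39.3% ± 0.777 (SD, n = 3). Reaching 50% of the reads took 6 consensus sequences in each P20 library, 10 or 11 in each knockout gonocyte library and 14 or 15 in each control. The effective number of consensus sequences, which is the number of equally abundant ones that would give the same Shannon entropy, was 30.5 ± 1.51 at P20, 50.8 ± 3.09 in the knockout gonocytes and 62.0 ± 1.29 in the controls (SD, n = 3 each). The P20 and knockout gonocyte libraries did not overlap in any of these measures (two-sided exact permutation test, p = 0.10), and 0.10 is the smallest p that 3 against 3 libraries can give.

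**Figure D1:**
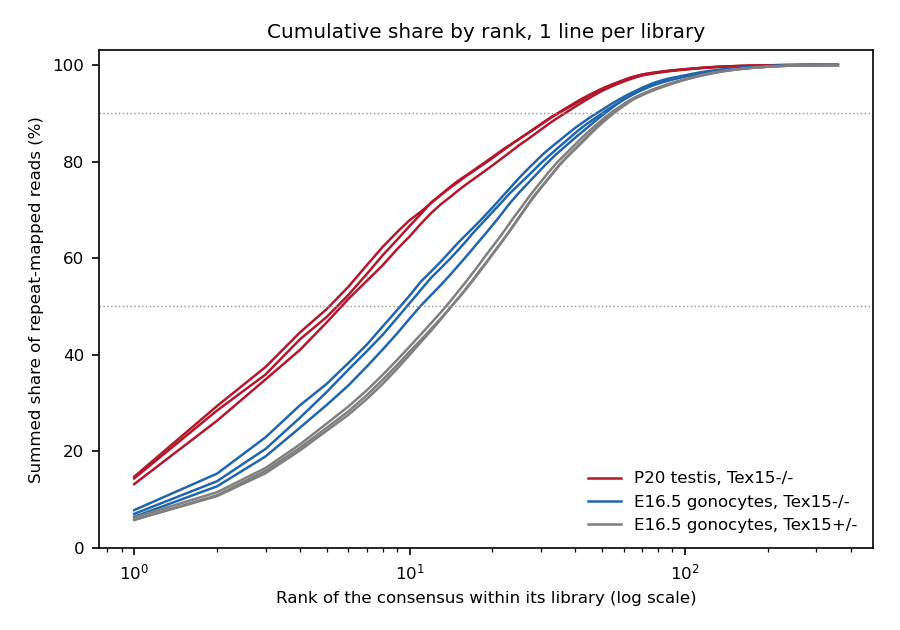
Summed share of repeat reads (%, vertical axis) over consensus sequences ranked from the largest down (horizontal axis, log scale), with 1 line per library and dotted lines at 50% and 90%. The 3 P20 lines lie above the 3 knockout gonocyte lines until nearly all reads are counted, and reach 50% at rank 6 against rank 10 or 11.

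Most names were present in both sets. Of 359 names in the tables, 325 had a read in both knockout sets and 266 in all 6 libraries, while 24 were listed with reads in the knockout gonocytes only, 3 in the P20 libraries only and 7 in neither. The 3 names found at P20 only had 1 read at most. Among the 24, SQR4_MM had 621, 287 and 486 reads in the gonocytes and none at P20. No fold difference is given for it, since these 24 names were picked for having no read at P20. The other 23 had between 2 and 72 reads over the gonocyte set. The P20 libraries had reads on 298 to 300 names and the knockout gonocytes on 322 to 341. At the depth of the smallest library, 338254 reads, 296 ± 1.74 and 324 ± 8.33 names would be expected (SD, n = 3 each), so that a gap remained at an equal number of counted reads. Since both mates of a pair were counted at E16.5, equal reads there are not equal numbers of fragments.

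The order of the consensus sequences was alike within a set and less so between sets. Spearman's rho over the 359 names, given as a description since the libraries share their consensus set and many low counts, was 0.972 to 0.976 between P20 libraries, 0.973 to 0.983 between knockout gonocytes and 0.907 to 0.922 between the sets. To turn 1 library's composition into another's, 4.01% to 6.84% of the reads would have to sit on another consensus within P20, 7.16% to 10.7% within the knockout gonocytes and 30.1% to 34.4% between the sets. Of the 10 largest names of each set, 7 were shared, and of the 50 largest, 42. The shared 7 were L1MdTf_I, L1MdTf_II, L1MdTf_III, L1MdA_I, L1MdA_II, IAPEZI and IAPLTR1a_I_MM. L1_MM, MMERVK10C and ERVB4_1B-I_MM were among the 10 largest at P20 only, and L1MdGf_I, L1MdF_I and L1MdA_III in the gonocytes only.

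The broad LINE and LTR classes overlapped between the sets. LINEs took 58.5%, 63.7% and 64.8% of the reads at P20 and 65.9%, 69.1% and 62.4% in the knockout gonocytes, without a difference that passed (exact permutation test, p = 0.40). LTR elements took 35.4%, 31.4% and 29.3% at P20 and 26.8%, 22.5% and 30.2% in the gonocytes (exact permutation test, p = 0.20). Of 13 narrower groups, 9 did not overlap between the sets, each with an exact permutation p = 0.10 and 0.144 after Benjamini-Hochberg adjustment over the groups. L1MdTf and ERVK elements other than IAP were higher at P20. L1MdGf, the remaining LINEs, MaLR, LTRs of unsettled class, SINEs, satellites and the small group of other repeats were lower at P20. These are directions of shares, which must sum to the whole, so they depend on the scale. The 4 overlapping groups were L1MdA with L1_MM, IAP, ERV1 and ERVL.

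**Figure D2:**
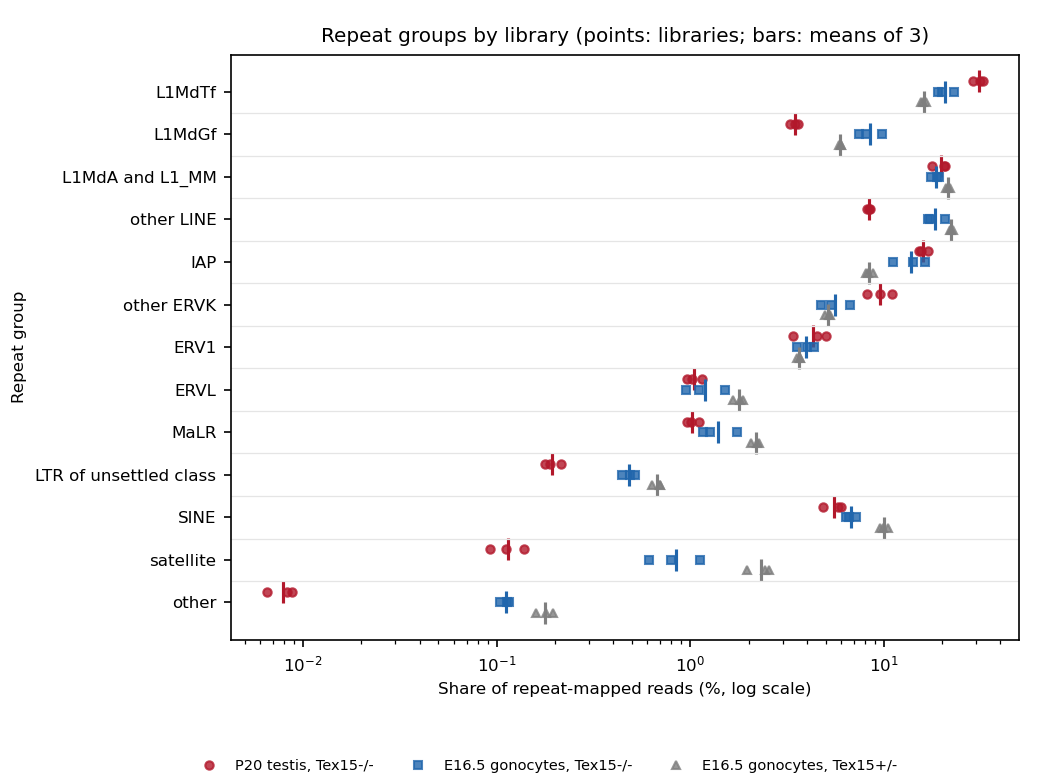
Share of repeat reads (%, horizontal log axis) taken by each of 13 repeat groups (vertical axis), with 1 point per library and a bar at the mean of 3. P20 testes lie to the right of the knockout gonocytes for L1MdTf (30.9% against 20.6%) and other ERVK (9.58% against 5.57%) and to the left for L1MdGf (3.46% against 8.43%) and satellites (0.114% against 0.844%).

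For single names, edgeR's quasi-likelihood test was run on the 246 names with enough reads, with the total of repeat reads as library size, so that a fold difference is a ratio of shares. At an adjusted p below 0.01, 18 names (7.32% of those tested) were higher at P20 and 147 (59.8%) were lower, 165 (67.1%) together. The libraries of the sets did not overlap for 23 names that were higher at P20 (9.35%) and 176 that were lower (71.5%). The median log2 difference, P20 over E16.5, was -1.07. Because shares must sum to the whole, these counts depend on the scale. With TMM factors, which centre most names on no difference and shifted the median by 0.84, 41 names (16.7%) were higher and 66 (26.8%) lower. Higher calls made 10.9% of all calls on shares and 38.3% with TMM factors. For DESeq2 with its size factors, 352 names were entered without the count filter of edgeR, but under the default filter of DESeq2 on mean counts. There 59 were higher and 57 lower, so that 50.9% of calls were higher. Of the 246 names, 51 would not have passed the count filter on their P20 reads alone, which favours calls of lower at P20 among them. On gonocyte reads alone 239 would have passed, and for the rest the filter favours calls of higher at P20. The 113 names not tested held 0.034% of the P20 reads and 0.125% of the gonocyte reads.

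**Figure D3:**
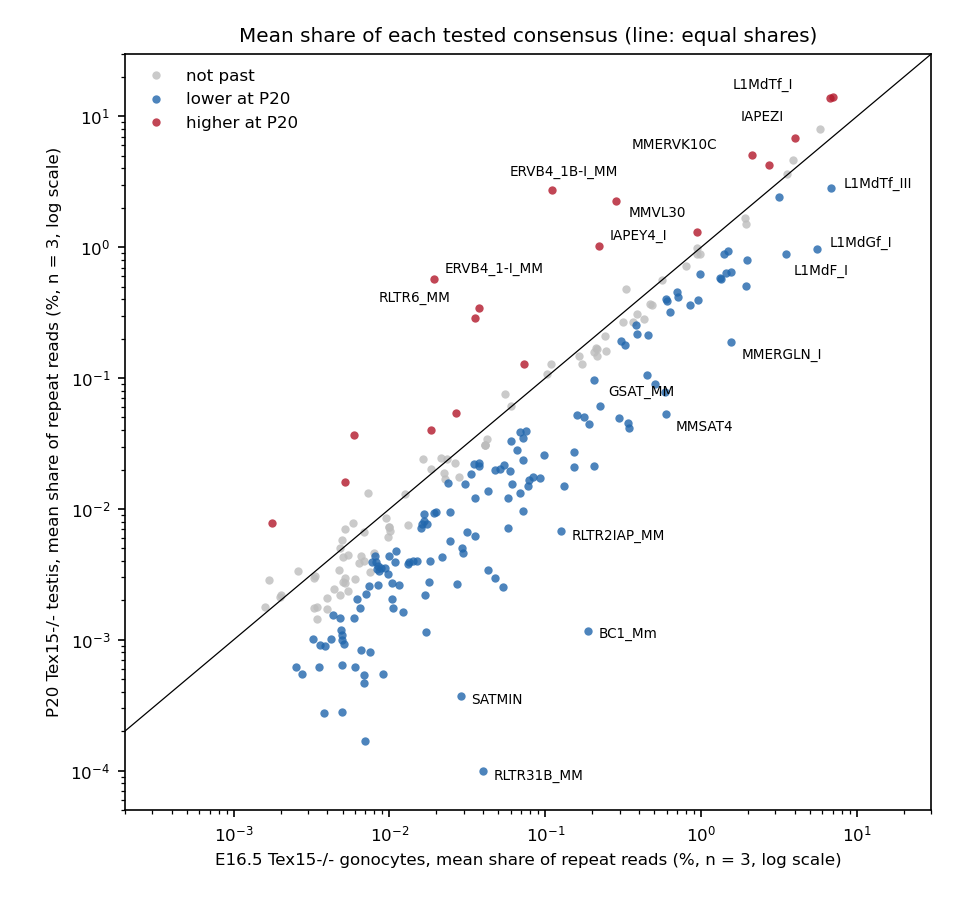
Mean share of repeat reads (%, n = 3) of each tested name with a P20 read in E16.5 knockout gonocytes (horizontal, log scale) and in P20 knockout testes (vertical, log scale), with the line of equal shares. Red names were higher and blue names lower at P20 at an adjusted p below 0.01 by edgeR, and ERVB4_1B-I_MM (2.73% against 0.1097%) and MMVL30 (2.28% against 0.284%) stand well above the line.

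L1MdTf was the largest group of both sets by mean share, although the remaining LINEs were larger in gonocyte replicate 1 (20.8% against 19.0%). It took 29.0%, 31.4% and 32.4% of the reads at P20, 19.0%, 22.9% and 19.9% in the knockout gonocytes and 16.03% ± 0.541 (SD, n = 3) in the control gonocytes. All P20 libraries lay above all gonocyte libraries. L1MdTf_I took 13.2%, 14.4% and 14.8% at P20 against 6.48%, 7.86% and 6.76% in the knockout gonocytes, a log2 difference of 1.01 ± 0.102 (SE, edgeR adjusted p = 1.13e-06), and it ranked first in both sets. L1MdTf_II, next in size at P20, took 13.1%, 14.1% and 14.6% against 6.19%, 7.52% and 6.45%, a log2 difference of 1.05 ± 0.103 (SE, edgeR adjusted p = 7.64e-07). L1MdTf_III went the other way, with 2.64%, 2.88% and 2.98% at P20 and 6.31%, 7.56% and 6.69% in the gonocytes. It ranked 9 at P20 and 2 at E16.5, with a log2 difference of -1.28 ± 0.114 (SE, edgeR adjusted p = 3.02e-07) that kept its sign but not its call with TMM factors (-0.44, adjusted p = 0.0251).

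Within the L1MdTf reads alone, where the scale of the other repeats plays no part, the 3 names were nearly even in the gonocytes and uneven at P20. L1MdTf_I, L1MdTf_II and L1MdTf_III made 45.7%, 45.1% and 9.15% of the group's reads at P20, 34.1%, 32.6% and 33.3% in the knockout gonocytes and 31.7%, 30.8% and 37.5% in the controls. The SD over 3 libraries was 0.33 percentage points at most for each name in each knockout set, and the sets did not overlap for any of the 3 names (exact permutation test, p = 0.10). Reads of similar L1 names can be divided between them, and read length and pairing differed between the sets. Their part in this split, and in the splits within L1MdGf and L1MdA below, was not tested.

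L1MdGf took 3.26%, 3.49% and 3.61% of the P20 reads, 7.44%, 9.74% and 8.12% in the knockout gonocytes and 5.95% ± 0.0737 (SD, n = 3) in the controls. Most of the difference lay in 1 of its 3 names. L1MdGf_I took 0.939%, 0.982% and 1.01% at P20 and 4.69%, 6.62% and 5.32% in the gonocytes, where it ranked 5 against 18 at P20. Its log2 difference was -2.50 ± 0.144 (SE, edgeR adjusted p = 8.88e-09). L1MdGf_II had a log2 difference of -0.39 that did not pass on shares (adjusted p = 0.0125 by edgeR). It passed as lower with the control gonocytes added to the fit (edgeR adjusted p = 0.00281) and had the opposite sign with TMM factors (0.46). With DESeq2 it passed as higher (0.645, DESeq2 adjusted p = 0.00174). L1Md_Gf_5end, the 5' end of the family, took 0.983% ± 0.0740 at P20 and 0.938% ± 0.183 in the gonocytes (SD, n = 3 each). Among L1MdGf reads, L1MdGf_I made 28.3% ± 0.401 at P20 and 65.5% ± 2.50 in the gonocytes, and L1Md_Gf_5end made 28.4% ± 0.750 and 11.1% ± 0.946 (SD, n = 3 each).

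L1MdA with L1_MM took 17.7%, 20.7% and 20.4% at P20 and 18.8%, 19.2% and 17.6% in the knockout gonocytes, and the sets overlapped. Its members differed in direction. The log2 difference was 0.77 for L1MdA_I, 0.03 for L1MdA_II, -0.39 for L1MdA_III, -0.67 for L1MdA_IV and -1.27, -1.17 and -1.22 for L1MdA_V, L1MdA_VI and L1MdA_VII. L1MdA_I was higher at P20 with 6.11%, 7.28% and 7.15% against 3.92%, 4.34% and 3.81%, and L1_MM with 3.74%, 4.58% and 4.48% against 2.71%, 2.92% and 2.55%. L1MdA_III and L1MdA_IV passed as lower on shares but had log2 differences of 0.45 and 0.18 with TMM factors, and so have no direction that holds on both scales. The call of L1MdA_III was lost when any library but E16.5 replicate 1 was left out (edgeR adjusted p = 0.0118 to 0.0345). With DESeq2 it passed as higher (0.633, DESeq2 adjusted p = 0.00346). Of the 7 L1MdA names, 1 was higher and 5 lower on shares, beside 7.32% and 59.8% of all tested names, and with TMM factors 2 were higher, L1MdA_I and L1MdA_II, and none lower, beside 16.7% and 26.8%. Within the group, L1MdA_I made 34.9% ± 0.427 of the reads at P20 and 21.7% ± 0.853 in the gonocytes, and L1MdA_VII made 2.94% ± 0.170 and 7.25% ± 0.632 (SD, n = 3 each).

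The remaining L1-related names were lower at P20 as a group, at 8.45%, 8.16% and 8.39% against 20.8%, 17.2% and 16.8% in the knockout gonocytes and 22.3% ± 0.411 (SD, n = 3) in the controls. Of 33 tested, 22 passed as lower, 11 did not pass and none passed as higher, beside 59.8% lower and 7.32% higher over all tested names, with a median log2 difference of -0.99 beside -1.07 over all. With TMM factors 5 were lower (L1MdF_I, L1MdF_II, L1Md_F_5end, L1MM_F and L1VL1_5) and 2 higher (L1Lx_II and LX2B), beside 26.8% lower and 16.7% higher over all, with a median of -0.14 beside -0.23 over all. The 5 L1MdF names carried most of the difference in share. They took 3.42%, 3.43% and 3.56% at P20 and 10.96%, 10.6% and 9.77% in the gonocytes. L1MdF_I was the largest of them, at 0.842%, 0.899% and 0.910% against 3.25%, 3.81% and 3.40%, a log2 difference of -1.98 ± 0.128 (SE, edgeR adjusted p = 1.61e-08), and L1MdF_V differed least, by -1.20. All 5 passed as lower on shares, beside 59.8% of all tested names, and 2 with TMM factors, beside 26.8%. L1Md_F_5end, the 5' end of this type, differed by -3.27 on the log2 scale. The 3 L1MdV names took 1.09% ± 0.0517 and 1.54% ± 0.363 and were also lower at P20 without overlap, with 1 of them past the test on shares and none with TMM factors, where their median log2 difference was 0.40. The 15 L1Lx and LX names took 1.09% ± 0.0418 and 1.41% ± 0.406 and overlapped between the sets (SD, n = 3 each).

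**Figure D4:**
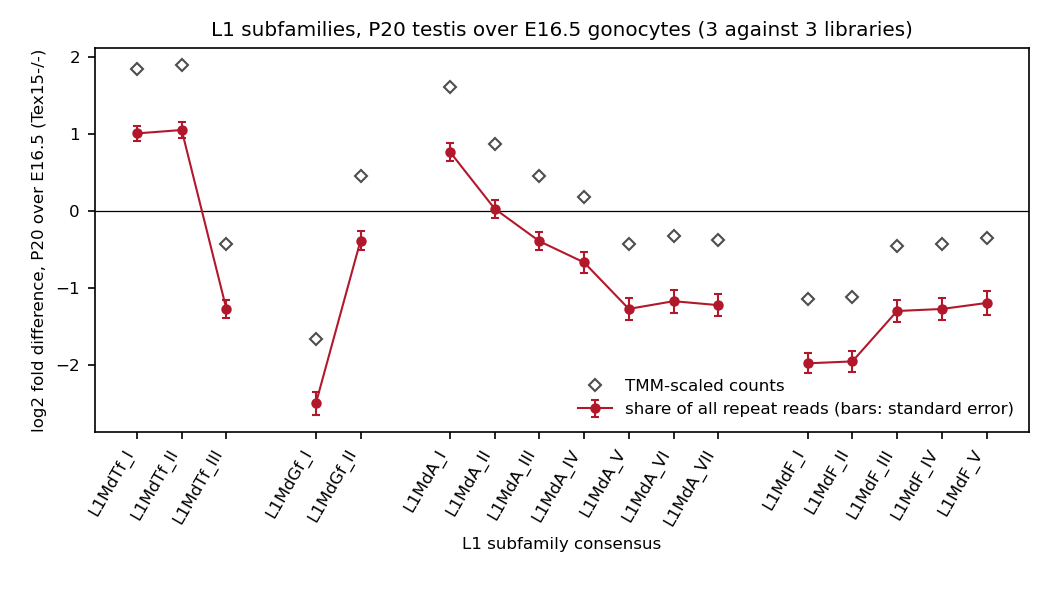
Log2 difference of P20 testes over E16.5 knockout gonocytes (vertical axis) for the numbered names of 4 L1 families (horizontal axis), on shares of all repeat reads (circles with standard error) and on TMM-scaled counts (diamonds). L1MdTf_I and L1MdTf_II lie at 1.01 and 1.05, L1MdTf_III at -1.28 and L1MdGf_I at -2.50, and the L1MdA names between 0.77 (L1MdA_I) and -1.27 (L1MdA_V).

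IAP elements took 16.9%, 15.1% and 15.5% of the reads at P20 and 14.1%, 11.2% and 16.3% in the knockout gonocytes, against 8.39% ± 0.383 (SD, n = 3) in the controls. The knockout sets overlapped (exact permutation test, p = 0.30). The gonocyte library with the lowest IAP share, replicate 2, was the one with the most somatic marker RNA, whose part in this was not tested, and without it the gonocyte mean was 15.2%. IAPEZI, an internal region and the largest ERV name in both sets, took 8.55%, 7.46% and 8.07% at P20 and 5.95%, 4.43% and 7.08% in the gonocytes. The libraries did not overlap, but the log2 difference of 0.46 did not pass on shares (edgeR adjusted p = 0.0111). It passed on shares with the control gonocytes added to the fit (adjusted p = 0.00354) and with TMM factors (1.31, adjusted p = 1.43e-05). IAPLTR1a_I_MM, also internal, took 4.62% ± 0.268 and 3.92% ± 0.825 (SD, n = 3 each) and overlapped.

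IAP names at the extremes differed more. IAPEY4_I, an internal region of the IAPEY type, took 1.22%, 1.22% and 0.651% at P20 and 0.126%, 0.305% and 0.230% in the gonocytes, a log2 difference of 2.22 ± 0.307 (SE, edgeR adjusted p = 2.11e-05). Of the 31 IAP names tested, 2 passed as higher on shares, IAPEY4_I and its LTR IAPEY4_LTR, and 20 as lower, or 6.45% and 64.5%, close to the 7.32% and 59.8% of all tested names. With TMM factors 8 were higher and 14 lower, beside 16.7% and 26.8% of all tested names. IAPEY4_LTR passed on shares although its libraries overlapped, at 0.0461%, 0.0467% and 0.0277% against 0.01002%, 0.0291% and 0.0165%. Its call on shares was lost when any 1 of P20 replicates 1 and 2 or E16.5 replicates 1 and 3 was left out (edgeR adjusted p = 0.0139 to 0.0303). The lower ones included LTRs and internal regions. RLTR2IAP_MM took 0.00686%, 0.00828% and 0.00503% at P20 and 0.126%, 0.121% and 0.131% in the gonocytes, a log2 difference of -4.23 ± 0.229 (SE, edgeR adjusted p = 8.50e-09). RLTR2aIAP_MM and IAPLTR2_Mm, further IAP LTRs, differed by -3.14 and -3.05 on the log2 scale. Both stayed lower with TMM factors, at -2.30 and -2.21. The internal regions IAPLTR3_I and IAP1-MM_I differed by -2.89 and -2.58, and by -2.04 and -1.72 with TMM factors.

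The other ERVK elements took 10.97%, 9.59% and 8.18% at P20 and 5.31%, 4.72% and 6.69% in the knockout gonocytes. Of 72 tested, 5 passed as higher and 45 as lower on shares, or 6.94% and 62.5%, close to the 7.32% and 59.8% of all tested names. With TMM factors 8 were higher and 18 lower, beside 16.7% and 26.8% of all. The 5 higher on shares were MMERVK10C and the internal regions and LTRs of ERVB4_1 and ERVB4_1B. Of these, ERVB4_1-LTR_MM had 54 reads over the knockout gonocyte libraries and 84 at P20. It passed the count filter through its P20 reads alone, which favours a call of higher. MMERVK10C, the largest of the group, took 5.68%, 4.61% and 4.82% at P20 and 2.03%, 1.60% and 2.79% in the gonocytes, a log2 difference of 1.24 ± 0.177 (SE, edgeR adjusted p = 2.93e-05). ERVB4_1B-I_MM showed a wider gap, with 3.26%, 3.13% and 1.79% at P20 against 0.0549%, 0.149% and 0.125% in the knockout gonocytes and 0.0589% on average in the controls. It ranked 10 at P20 and 78 at E16.5, with a log2 difference of 4.64 ± 0.351 (SE, edgeR adjusted p = 7.67e-08). ERVB4_1-I_MM had the largest positive difference of all tested names, 4.88 ± 0.286 on the log2 scale (SE, edgeR adjusted p = 9.66e-09), at 0.673%, 0.590% and 0.439% against 0.0131%, 0.0183% and 0.0264%. P20 replicate 3 was the lowest of its set for both ERVB4 names.

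The 10 ERVB4 names together took 3.63% ± 1.01 at P20 and 0.317% ± 0.0763 in the knockout gonocytes (SD, n = 3 each), 11.4 times as much, but ERVB4_2-I_MM of the same family was lower at P20, by -1.92 on the log2 scale. ETn and MusD names took 0.198% ± 0.00868 and 0.852% ± 0.131, and ERVB7 names 0.102% ± 0.0106 and 0.672% ± 0.156 (SD, n = 3 each), so that both were lower at P20 without overlap. The largest of these in the gonocytes was ERVB7_1-I_MM, at 0.0845%, 0.0650% and 0.0835% against 0.529%, 0.470% and 0.751%, and at P20 it was MMETN, at 0.101%, 0.0831% and 0.0858% against 0.483%, 0.434% and 0.604%. RLTR10A, an ERVK LTR, differed by -3.02 on the log2 scale.

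ERV1 elements took similar totals, 5.04%, 4.50% and 3.38% at P20 and 3.56%, 4.01% and 4.36% in the knockout gonocytes (exact permutation test, p = 0.60), with opposite leading members. MMVL30, the VL30 element, took 2.66%, 2.44% and 1.73% at P20 and 0.263%, 0.319% and 0.270% in the gonocytes, a log2 difference of 3.0 ± 0.184 (SE, edgeR adjusted p = 1.28e-08). MMERGLN_I, the internal region of the GLN element, took 0.227%, 0.169% and 0.168% at P20 and 1.56%, 1.33% and 1.77% in the gonocytes, a log2 difference of -3.05 ± 0.184 (SE, edgeR adjusted p = 1.26e-08). Of the ERV1 reads, MMVL30 made 52.7% ± 1.55 at P20 and 7.19% ± 0.902 in the gonocytes, and MMERGLN_I made 4.41% ± 0.602 and 39.2% ± 5.48 (SD, n = 3 each). LTRIS_Mus, an ERV1 LTR, was higher at P20 by 1.02 on the log2 scale, and RLTR4_MM by 0.81.

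RLTR6_MM, a further ERV1 LTR, took 0.402%, 0.362% and 0.272% at P20 and 0.0387%, 0.0380% and 0.0357% in the gonocytes, a log2 difference of 3.20 ± 0.205 (SE, edgeR adjusted p = 1.61e-08). Its reads did not follow the internal consensus with the same number. Per 100 reads of RLTR6I_MM there were 327, 320 and 336 reads of RLTR6_MM at P20 and 10.2, 9.11 and 6.44 in the knockout gonocytes. Per 100 reads of MMVL30, a pair chosen after its values were seen, there were 15.1, 14.8 and 15.7 at P20, 14.7, 11.9 and 13.2 in the knockout gonocytes and 13.7 ± 0.229 (SD, n = 3) in the controls. Both ratios were higher at P20 without overlap, with means of 15.2 against 13.3 for MMVL30 and 328 against 8.58 for RLTR6I_MM.

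LTR and internal consensus sequences were read against each other in this way for 22 pairs matched by name alone, of which 16 had at least 30 internal reads in every knockout library. LTR reads per 100 internal reads were lower at P20 in 8 pairs, higher in 5 and overlapping in 3 (exact permutation test, adjusted p = 0.123 at the smallest). IAPLTR1a had 1.19, 1.17 and 1.05 LTR reads per 100 internal reads at P20 and 3.67, 4.41 and 4.16 in the knockout gonocytes, against 6.41 ± 0.384 (SD, n = 3) in the controls. ERVB4_1B had 10.6 ± 0.543 at P20 and 36.5 ± 14.8 in the gonocytes, and ERVB4_1 had 1.33 ± 0.484 and 9.71 ± 3.53 (SD, n = 3 each). IAP5-Mm, IAPEY3, IAPEY4, IAPEY5 and MERVL were the other pairs with a lower ratio at P20. The ratio was higher at P20 for ERVB4_2, ERVB7_1, MMERGLN and RLTR4, and for RLTR6, where the ratios to MMVL30 above leave it unsettled whether both names belong to 1 element. Read length and pairing differed between the sets, and their part in these ratios was not tested.

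**Figure D5:**
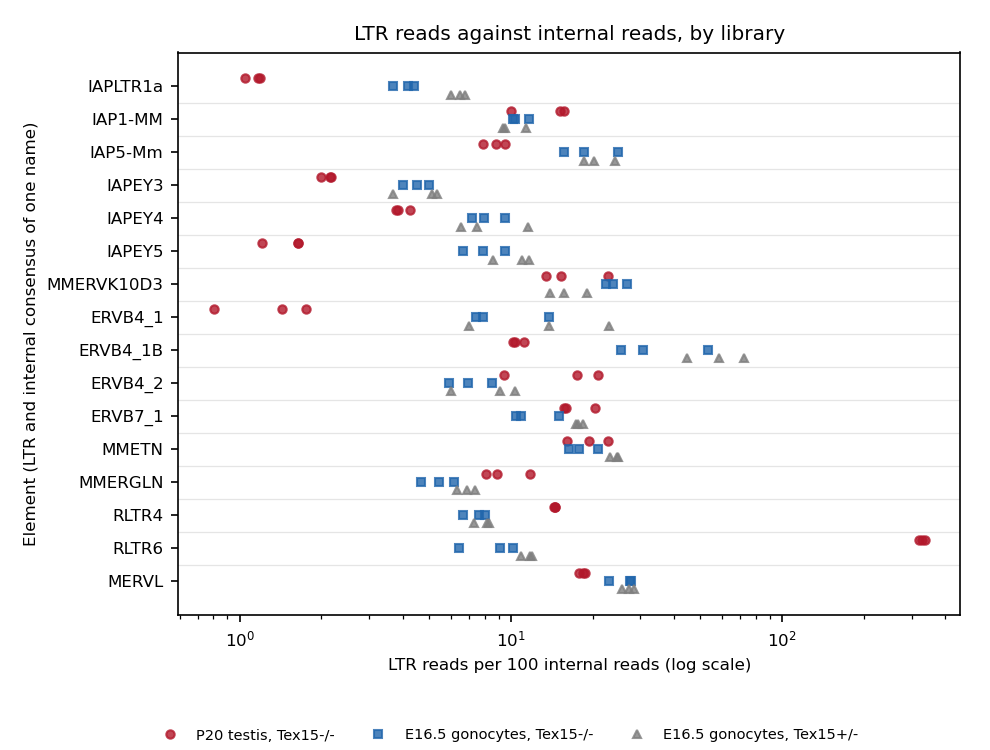
LTR reads per 100 internal reads (horizontal log axis) for the 16 pairs with at least 30 internal reads in each knockout library (vertical axis), with 1 point per library. IAPLTR1a lies at 1.13 on average at P20 and 4.08 in the knockout gonocytes, and RLTR6, whose pairing by name is unsettled, at 328 and 8.58.

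MERVL, the ERVL element, did not stand apart, with 0.972%, 0.821% and 0.865% at P20 and 1.18%, 0.748% and 0.897% in the knockout gonocytes. The largest MaLR name, MTA_Mm_LTR, also overlapped, with 0.716% ± 0.0585 and 0.796% ± 0.191 (SD, n = 3 each). Both passed as higher at P20 with TMM factors (log2 differences of 0.76 and 0.70), so neither has a direction that holds on both scales. All MaLR names took 1.02% ± 0.0748 at P20 and 1.39% ± 0.310 in the gonocytes, and the ORR1 names among them 0.212% ± 0.0111 and 0.390% ± 0.0788 (SD, n = 3 each), without overlap in either. Of 5 MaLR names tested, 4 passed as lower and none as higher on shares, beside 59.8% and 7.32% of all tested names. With TMM factors 2 were lower and 1 higher, beside 26.8% and 16.7%. The 108 LTR names of unsettled class took 0.194% ± 0.0193 and 0.484% ± 0.0373 in all (SD, n = 3 each). Their leading name in the gonocytes, RLTR31B_MM, had 455, 287 and 426 reads there and 0, 1 and 0 at P20.

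SINEs took 6.01%, 4.87% and 5.76% at P20 and 6.4%, 7.20% and 6.62% in the knockout gonocytes, against 9.98% ± 0.535 (SD, n = 3) in the controls. Of 9 SINE names tested, 1 passed as higher at P20 and 5 as lower on shares, beside 7.32% and 59.8% of all tested names. With TMM factors 3 were higher and 2 lower, beside 16.7% and 26.8%. Their median log2 difference was -0.57 on shares and 0.28 with TMM factors, so the direction of the SINE names depends on the scale. B2_Mm1a, the largest SINE name in both sets, overlapped, with 1.8%, 1.40% and 1.79% against 1.77%, 2.02% and 1.96%, and it too passed as higher with TMM factors (0.64). B2_Mm2 was higher at P20 (log2 difference of 0.48, edgeR adjusted p = 0.0058) and the B1 consensus lower (-1.81). Among SINE reads, B2_Mm2 made 23.8% ± 1.15 at P20 and 14.0% ± 0.573 in the gonocytes (SD, n = 3 each). BC1_Mm, a small RNA gene best known from neurons, was nearly missing at P20, with 3, 3 and 7 reads, and had 1005, 2141 and 1692 reads in the gonocytes, or 0.0787%, 0.323% and 0.161%. That order of the gonocyte libraries was also the order of their Leydig, mesenchymal, Sertoli and endothelial marker sums, but not of their blood cell markers. The part of somatic cells was not tested. The controls, with low Leydig and mesenchymal markers, had 0.138% on average. No log2 difference is given for BC1_Mm, which passed the count filter through its gonocyte reads alone.

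Satellite reads were few at P20. GSAT_MM, the major satellite, had 190, 135 and 363 reads or 0.0521%, 0.0399% and 0.0913% at P20, and 0.315%, 0.232% and 0.126% in the knockout gonocytes. The difference of -1.87 ± 0.343 on the log2 scale (SE) passed on shares (edgeR adjusted p = 0.00027) but not with TMM factors (-1.0, adjusted p = 0.0172). The control gonocytes held more of it, at 1.65% on average. SATMIN, the minor satellite, had 1, 2 and 1 reads at P20 and 394, 188 and 280 in the gonocytes. Like BC1_Mm, it passed the count filter through its gonocyte reads alone, and no log2 difference is given for it. The exact 95% binomial intervals of the P20 shares reach up to 0.00153%, 0.00214% and 0.0014%, and the lowest lower bound of the gonocyte intervals was 0.0236%. These intervals cover counting error only and treat reads as independent. Both mates of a pair were counted at E16.5, so the gonocyte intervals are too narrow, and the intervals are no test between the sets. MMSAT4 took 0.0590%, 0.0523% and 0.0476% at P20 and 0.447%, 0.864% and 0.464% in the gonocytes, with the highest value in the library of the most somatic marker RNA. Without that library its log2 difference was -3.10 instead of -3.48. IMPB_01, the largest name outside all these groups, took 0.00252% and 0.0532% on average.

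The 10 LINEs and 10 ERVKs that the study singled out were those it found most raised against control testes at P20, in Tex15-/- and Miwi2-/- mice. RNA of these P20 testes was part of that choice, so the direction of these names is not independent evidence. They took 71.4%, 74.0% and 74.6% of the reads at P20, 53.5%, 57.7% and 57.5% in the knockout gonocytes and 45.0% ± 0.844 (SD, n = 3) in the controls. All 20 were tested, and 7 passed as higher at P20, 5 as lower and 8 did not pass, beside 7.32% and 59.8% of all tested names. With TMM factors 13 were higher and 1, L1MdGf_I, was lower, beside 16.7% and 26.8%, with a median log2 difference of 1.0 instead of 0.15. The 7 higher on shares were L1MdTf_I, L1MdTf_II, L1MdA_I, L1_MM, MMERVK10C, ERVB4_1B-I_MM and, with the call that 4 of the 6 libraries can end, IAPEY4_LTR. The 5 lower on shares were L1MdTf_III, L1MdGf_I, L1MdA_III, IAPLTR1_Mm and RLTR1IAP_MM. The last had a log2 difference of -0.64 on shares and 0.20 with TMM factors. Leaving out 1 library ended the call of L1MdA_III for 5 of the 6 libraries and that of RLTR1IAP_MM for 3. IAPA_MM (0.55), IAP5-Mm_I (0.06) and IAPEY5_I (-0.55), with log2 differences in parentheses, were among the 8.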

How the data were processed

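The authors trimmed the reads with cutadapt 1.8.1, mapped them with Bowtie2 2.3.4.3 at default settings to Repbase consensus sequences of rodent repeats, and deposited raw counts of reads per consensus for each library, without normalisation. A name missing from a table was read as 0. The row of unmapped reads, present in the gonocyte tables only, held all reads but the 2.25% to 4.17% on repeats and was left out. In the gonocyte tables the sum of all rows was 2.0 times the read total of the gene table, so each mate was counted. The authors also deposited counts per gene for the gonocytes (HISAT2, HTSeq 0.11.1), used here for markers only, as CPM of the reads on genes. Rows for reads on no single gene held 61.3% to 67.3% of those tables. The small RNA tables were not used here.

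Names were tested with edgeR 4.0.16 (R 4.3.3; glmQLFit and glmQLFTest, low counts filtered by filterByExpr at 10 reads per library and 15 in total, library size the total of repeat reads, no further factors), on the 6 knockout libraries, with Benjamini-Hochberg adjustment at 0.01. The SE of a log2 difference was derived from the test, as the size of the difference divided by the square root of its F statistic. Group shares, concentration measures and LTR ratios were compared with two-sided exact permutation tests over libraries (scipy 1.17.1). Names were put into 13 groups by their spelling, and RLTR, MLTR and RMER names whose class the spelling does not settle stayed in a group of their own. Named sequences were the 10 largest by mean share in each set, the 10 largest differences in each direction among calls without overlap and with a mean share of at least 0.05% in a set, the study's 20 families, every satellite and each group's leader, and further names stand as examples of their groups, chosen after their values were seen. The libraries and lists were chosen with earlier results of these data known. On simulated counts for 242 names, the fit recovered 57.7% of 2-fold and 100% of 4-fold changes, with 2 false calls. The simulation gave every name a coefficient of variation of 0.2 and the same baseline in both sets, with 60 changes, evenly up and down. In the real data far more names differed and the spread varied by name, so these rates do not carry over to the real comparison. Chi-square statistics per degree of freedom between replicates of 1 set were at least 11.3, so no pair of tables agreed within sampling noise, although mates counted singly raise this value at E16.5. Replicate numbers do not pair the samples, since P20 testes and E16.5 gonocytes come from different animals. Correlations of deviations were -0.059, 0.103 and -0.089 for libraries of the same number and -0.093 to 0.142 for the others, which by themselves cannot settle pairing.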

Additional observations from a re-analysis of the deposited data

How the results depend on the processing

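The count of names past the threshold was 165, 18 higher and 147 lower at P20. With TMM factors it was 107, with 41 higher and 66 lower. With DESeq2 1.42.0 and its size factors it was 116, with 59 higher and 57 lower. For that fit 352 names were entered without the count filter, and the default filter of DESeq2 on mean counts can leave some without an adjusted p. TMM factors shifted the median log2 difference by 0.84 and DESeq2 by 1.03. Of the 165 calls, 84 were also calls with TMM factors, all with the same sign, and 75 with DESeq2, 74 of them with the same sign. With the replicate number as a block there were 172 calls, 19 higher and 153 lower, but the samples share only a number. Without a filter there were 173 calls, and with gonocyte counts divided by 2, an alternative chosen after seeing the data, there were 159. Leaving out 1 library in turn gave 134 to 170 calls, 15 to 19 higher and 117 to 151 lower. The same step moved group differences (P20 minus E16.5, in percentage points) from -0.0326 to 0.796 for ERV1 and from -0.258 to 0.0196 for ERVL, which changed sign, and kept the sign of the other 11 groups, with IAP at 0.627 to 3.20. The difference in the effective number of names was -20.3, and -17.2 with LINE and LTR names only.

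Of 593 values of 43 named sequences, 528 kept their direction and their side of the threshold, 20 fell short of it, 22 newly passed it and 23 had the opposite sign. The 528 include 52 of 52 values of BC1_Mm, SATMIN, RLTR31B_MM and IMPB_01, which would not have passed the count filter on P20 reads alone and say little about stability. Opposite signs came with the scales that move the median for L1MdA_III (0.45 with TMM factors, 0.63 with DESeq2), L1MdGf_II (0.46 and 0.65), RLTR1IAP_MM (0.20 and 0.39), IAPEY5_I (0.30 and 0.49), MERVL (0.76 and 0.96), MTA_Mm_LTR (0.70 and 0.90) and B2_Mm1a (0.64 and 0.81). The others were differences near 0. L1MdA_III and L1MdGf_II, lower on shares, passed as higher with DESeq2 (DESeq2 adjusted p = 0.00346 and 0.00174). With 1 library left out, L1MdA_II ranged from -0.0215 to 0.11, negative without P20 replicate 2 or 3 or E16.5 replicate 3, and it was -0.0033 with LINE and LTR names only. In the same way L1Md_Gf_5end ranged from -0.0737 to 0.21, MERVL from -0.23 to 0.11 and MTA_Mm_LTR from -0.27 to 0.061, each with the other sign without E16.5 replicate 1 only. IAP5-Mm_I ranged from -0.0478 to 0.18, negative without E16.5 replicate 2 or P20 replicate 1 (-0.0091). With TMM factors, IAPEZI, IAPLTR1a_I_MM, L1MdA_II, L1Md_Gf_5end, IAPA_MM and IAP5-Mm_I passed as higher, with log2 differences of 0.87 to 1.39. With the control gonocytes in the fit, IAPEZI, L1MdGf_II, IAPA_MM and IAPEY5_I passed on shares (edgeR adjusted p = 0.00354, 0.00281, 0.00432 and 0.00464), and L1MdGf_II did with LINE and LTR names only (0.00982). IAPEZI also passed with the replicate number as a block (0.49) and without E16.5 replicate 3 (0.63), IAPA_MM without replicate 1 (0.59) and IAPEY5_I without replicate 1 (-0.59) or 2 (-0.64). Weak calls were lost when 1 library was left out, that of L1MdA_III for 5 of the 6 libraries, of IAPEY4_LTR for 4 and of RLTR1IAP_MM for 3. The cause of these changes was not tested. The P20 libraries, with at most 397378 repeat reads, limit what can be said of names under a few reads there, and 3 libraries a set cannot give an exact p below 0.10.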
